A study of Mus musculus with 16 samples.

Results

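The nephritis response of splenic CD4+ T cells was compared between mice that lack the kinase IKK2 in T cells and Cre controls. The quantity described for every gene is a difference of differences. The change from untreated to nephritic Cre controls was subtracted from the change from untreated to nephritic IKK2 knockouts, so that a positive value means a more positive response in the knockout. It rests on 12 of the 16 arrays of the series, 3 in each of 4 groups, picked by their sample titles. The other 4 arrays come from a knockout of a second kinase subunit. They do not enter the contrast but add to the estimate of the spread. Together with the 12 they also set which genes were tested and which probe stands for each gene.

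All 4 groups carried Cre recombinase driven by the CD4 promoter. The Cre group (CD4cre) had this transgene alone, and the knockout group (CD4xIKK2) also had the floxed gene of IKK2, IKK2fl/fl. The nephritic groups (NTN_CD4cre and NTN_CD4xIKK2) had received nephrotoxic sheep serum at 2.5 mg per g body weight and were sampled on day 10. The labels list the other groups as without inflammation, and do not state whether those mice received a control injection. The animals were males of 8 to 10 weeks. CD4 is also made by double-positive thymocytes, so Cre under this promoter reaches CD8+ T cells too. CD4+ spleen cells went through an isolation kit and a cell sorter, and total RNA was labelled with Cy3 and hybridised to 1 array per sample. Whether each array stands for its own animal is not stated, and p-values then measure only how these samples spread, part of which may be technical.

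IKK2, encoded by Ikbkb, is a catalytic subunit of the IkB kinase complex, and NEMO, encoded by Ikbkg, is its regulatory subunit. After T cell receptor, costimulatory or cytokine signals the complex phosphorylates IkB proteins, which are then degraded and release NF-kB dimers to the nucleus. In T cells this pathway acts in survival, in cytokine production and in the formation of regulatory T cells. Nephrotoxic serum contains antibodies to the glomerulus, and T cells primed in the spleen contribute to the glomerulonephritis that follows.

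Levels are log2 processed intensities minus the array's 75th percentile, so 0 is the 75th percentile and differences are log2 fold changes. Between 48.9% and 57.2% of spots on the 12 arrays were well above background. The 10 genes of a T cell identity list, among them Cd4 and Cd3e, were well above background on all 12 arrays. Their list mean on single arrays lay within -0.12 and 0.12 of the untreated Cre mean. The arrays sat on 2 slides. Slide 2 held all 3 untreated Cre arrays and untreated knockout 3, and slide 1 held the other 8 arrays. The contrast can therefore not be made within a slide. With slide as a block it rests on untreated knockout 3, the only array of another group beside the untreated Cre arrays. The slides also differed in background. Net signal of negative control spots was at most 22.4 for any slide 2 array, whereas no slide 1 array had less than 40.5. The part of this difference in the contrasts of genes near background was not tested. Several arrays stood apart. The replicate spots of untreated Cre 1 varied by 21.1% against 9.09% to 11.6% on the other 11 arrays. Nephritic Cre 2 lay alone on the second principal component, and a dim area on it left 617 of the tested genes with a probe in or near that area. No value is printed for the 7 genes selected for description whose probes lie there. The main fit was not masked. The 25 list genes and 5 of the 166 genes past the threshold with a probe there still enter the counts, list medians, list means and figures. Nephritic Cre 1 had low list means of B cell, myeloid and dendritic cell markers and the highest of plasma cell markers, given beside those genes.

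Of 14675 genes tested, 166 (1.13%) passed an adjusted p of 0.05 in limma, 44 (0.300%) higher and 122 (0.831%) lower in the knockout response than in the Cre response. At an unadjusted p under 0.05 in limma, 2926 of the 14675 genes passed, 878 higher and 2048 lower. Counts of list genes at that level are to be read beside these shares of all genes. The median contrast of all genes was -0.09. In the same fit 4.03% of genes passed for the Cre response and 0.443% for the knockout response, and 14.6% and 2.58% for the genotype gap without and with nephritis. The 4 groups differed in which of them set a call apart, as a description of genes that the test had selected. Among the 44 higher genes, untreated knockouts had the lowest mean in 30 (68.2%), against 24.4% of all genes tested. The highest mean belonged to nephritic knockouts in 23 (52.3%, all genes 21.8%) and to untreated Cre in 21 (47.7%, all genes 19.6%). All 3 nephritic knockout arrays exceeded the other 9 arrays in 15 of the 44 (34.1%), against 1.66% of all genes. Among the 122 lower genes, untreated knockouts had the highest mean in 102 (83.6%, all genes 24.8%). Untreated Cre had the lowest mean in 103 (84.4%, all genes 40.4%). Nephritic Cre had the highest mean in 19 (15.6%, all genes 33.8%), and nephritic knockouts the lowest in 19 (15.6%, all genes 19.7%). All 3 untreated Cre arrays lay below the other 9 in 62 of the 122, against 6.73% of all genes tested. The median responses of the higher genes were -0.33 in Cre and 0.67 in knockouts, and those of the lower genes 0.53 and -0.42. In both sets the median responses of the 2 genotypes had opposite signs, in genes that were selected for the difference of these responses.

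**Figure D1:**
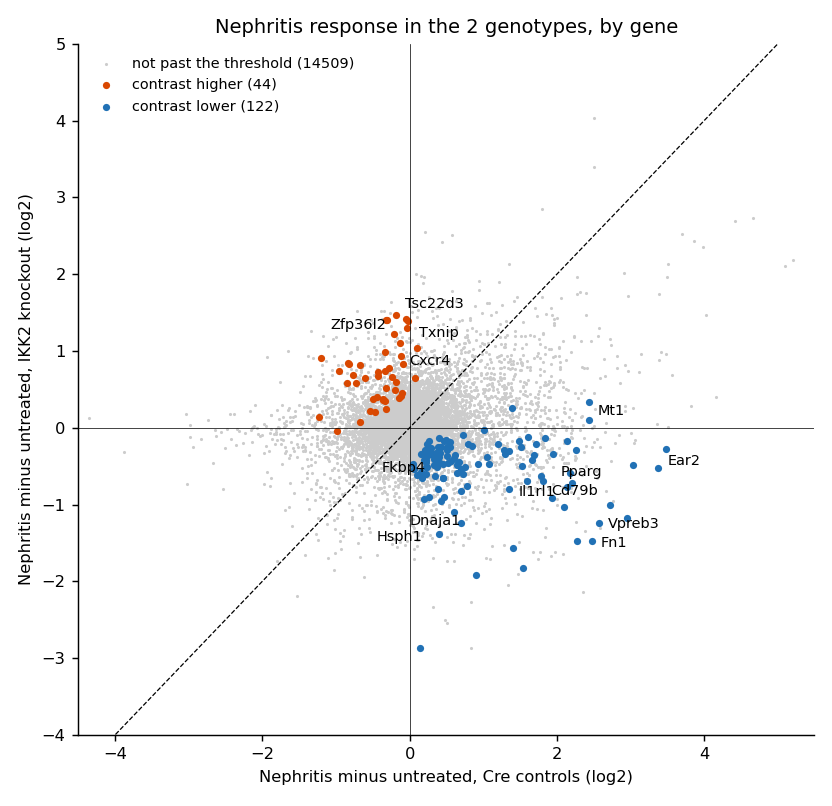
Log2 nephritis response of each tested gene in Cre controls (horizontal axis) and in IKK2 knockouts (vertical axis). Points on the dashed line have equal responses. The 44 genes with a higher contrast (orange) lie above the line and mostly left of 0 on the horizontal axis, and the 122 with a lower contrast (blue) lie below it, with Hsph1 and Dnaja1 near 0 on the horizontal axis and Vpreb3, Ear2 and Fn1 far to the right.

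The count depended on the arrays. It was 33, 59 and 13 without untreated Cre 1, 2 and 3, and 388, 15 and 30 without nephritic Cre 1, 2 and 3. It was 69, 35 and 347 without untreated knockout 1, 2 and 3, and 21 and 9 without nephritic knockout 2 and 3. Leaving out nephritic knockout 1 gave 142. With the dim area of nephritic Cre 2 masked, 156 genes passed, 49 of them higher. With the 12 arrays alone 11 passed, and with slide as a block 38 passed, 19 of them among the 166. Scaling by the percentile of probes detected on all arrays gave 52 higher and 69 lower genes. Of the 62 selected genes that passed, between 7 and 60 still passed when 1 array was left out, lowest without nephritic knockout 3. The number of alternatives, of 26 in all, under which a gene still passed is therefore given for the genes described. Pparg and Fkbp4 passed in 24, Stxbp4 in 23, Nxpe4 and Plin2 in 22, Il1rl1 and Ahsa2 in 21, and Vpreb3 in 20. No other gene described here passed in more than 18. The contrasts of 29 of these 62 genes were over 1.5 times smaller with normexp background correction, 12 with the authors' deposited matrix and 15 with a B cell covariate, which made 2 others over 1.5 times larger. With normexp Pparg had -1.21, Stxbp4 0.61, Ahsa2 -0.46 and Vpreb3 -2.53. Hsph1, Tsc22d3, Zfp36l2 and Cxcr4 each lost the call without untreated Cre 3, nephritic Cre 2 or 3, or nephritic knockout 2 or 3. There their adjusted p was 0.053 to 0.075 and their contrasts -1.84 to -1.63, 1.52 to 1.76, 1.36 to 1.51 and 1.10 to 1.30. Hsph1, Tsc22d3 and Cxcr4 also lost the call without untreated knockout 2, and Hsph1 without untreated Cre 1. Vpreb3 and Cd79b lost it without untreated Cre 3 (both 0.051) and without nephritic knockout 3 (0.056 and 0.061).

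The gene of the deleted kinase comes first. Ikbkb stood at 3.29, 3.31 and 3.30 in untreated Cre, 3.27, 3.45 and 3.18 in nephritic Cre, 3.31, 2.88 and 2.99 in untreated knockouts and 3.02, 2.95 and 2.91 in nephritic knockouts. The nephritic knockout arrays lay below all Cre arrays of both conditions, whereas untreated knockout 1 was as high as they were. The contrast was -0.10 ± 0.15 (SE, adjusted p = 0.75 in limma), and the genotype gaps were -0.24 ± 0.11 without and -0.34 ± 0.11 with nephritis, with adjusted p of 0.162 and 0.134. Where the probe lies relative to the deleted exon is not known here, so its level does not show whether the deletion took place.

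Of the 23 tested genes of a canonical IKK pathway list, 1 was lower and none was higher (1 and 2 at an unadjusted p under 0.05 in the higher and lower direction), with a median contrast of -0.08. The 1 was Ikbkg, the gene of NEMO. It stood at -0.85, -0.74 and -0.52 in untreated Cre, -0.26, -0.40 and -0.26 in nephritic Cre, -0.01, -0.00 and -0.06 in untreated knockouts and -0.33, -0.53 and -0.36 in nephritic knockouts. All untreated knockout arrays were above all others, and the nephritic groups overlapped. The contrast was -0.78 ± 0.14 (adjusted p = 0.037), and a second probe gave -0.56. Ikbkg passed in 8 of 26 alternatives. Chuk, which encodes the other catalytic subunit IKK1, had -0.19 ± 0.11, and the NF-kB subunit genes Rela and Nfkb1 had -0.06 ± 0.11 and -0.34 ± 0.16, with adjusted p of 0.273 or more for these 3 genes.

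None of 25 tested NF-kB target genes passed (3 higher and 2 lower at an unadjusted p under 0.05; median -0.14). Nfkbia, the IkB alpha gene that NF-kB induces as its own inhibitor, was just outside the threshold. It stood at 5.94, 5.96 and 5.97 in untreated Cre, 6.09, 6.10 and 5.99 in nephritic Cre, 5.04, 5.19 and 5.23 in untreated knockouts and 5.76, 5.75 and 5.70 in nephritic knockouts. The 4 groups did not overlap, and the knockouts were the lowest in each condition. Its contrast was 0.48 ± 0.10 with an adjusted p of 0.053, and 0.045 with the dim area masked. It passed in 3 of 26 alternatives, over which the adjusted p in limma ran from 0.040 to 0.308. The response alone was 0.58 ± 0.07 in knockouts (adjusted p = 0.009) and 0.10 ± 0.07 in Cre.

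Noncanonical NF-kB signalling runs through NIK and IKK1 instead of IKK2. Of its 15 listed genes, 1 passed, Tnfsf8 (median -0.12). Tnfsf8 encodes CD30 ligand, a TNF family member on activated T cells. Its levels were 3.17, 3.02 and 2.95 in nephritic knockouts and between 2.38 and 2.70 on the other 9 arrays. The contrast was 0.56 ± 0.11 (adjusted p = 0.045), with 6 of 26 alternatives passed. Nfkb2 and Relb, the subunits of that pathway, had contrasts of -0.25 ± 0.18 and -0.17 ± 0.18 and did not pass.

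Part of the lower genes rose in nephritic Cre controls, with no response past the threshold in knockouts. Pparg encodes a lipid-activated nuclear receptor that occurs in some T helper and regulatory T cells and in macrophages. Its levels were -2.98, -2.70 and -2.92 in untreated Cre, -1.10, -0.83 and -0.81 in nephritic Cre, -2.38, -2.52 and -2.67 in untreated knockouts and -2.91, -2.81 and -2.88 in nephritic knockouts. The 3 nephritic Cre arrays stood far above the other 9. Pparg rose by 1.95 ± 0.16 in Cre (adjusted p = 7.18e-04) and had a response of -0.34 ± 0.16 in knockouts (adjusted p = 0.347). The contrast was -2.30 ± 0.23 (adjusted p = 0.005 in limma), a response ratio of 0.204.

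Il1rl1 showed a similar order of groups. It encodes ST2, the receptor of interleukin 33, which occurs on Th2 cells, on a subset of regulatory T cells and on mast cells. Its levels were -0.05, -0.14 and -0.08 in untreated Cre and 1.39, 1.11 and 1.29 in nephritic Cre. They were 0.08, -0.51 and 0.27 in untreated knockouts and -0.44, -1.06 and -1.06 in nephritic knockouts. The untreated genotypes overlapped, while under nephritis the lowest Cre array was above the highest knockout array. The response was 1.36 ± 0.21 in Cre (adjusted p = 0.011) and -0.80 ± 0.21 in knockouts (adjusted p = 0.102), and the contrast was -2.16 ± 0.29 (adjusted p = 0.021). The other 2 probes of the gene gave -2.05 and -2.01. The call ended without nephritic knockout 3 (-2.05, adjusted p = 0.056).

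Another 4 genes with their highest mean in nephritic Cre were chosen after their values were seen. Fut7 encodes the fucosyltransferase that makes selectin ligands for homing of activated T cells. It stood at 1.67, 0.90 and 0.70 in nephritic Cre, above all other arrays, and its contrast was -1.55 ± 0.27 (adjusted p = 0.038, 10 of 26 alternatives). The membrane protein gene Popdc2 had -1.65 ± 0.30, the lipid transfer gene Stard10 -0.88 ± 0.17 and the LIM domain gene Csrp2 -0.97 ± 0.17, with adjusted p of 0.038 to 0.039. These 3 passed in 7 to 9 of 26 alternatives. For Stard10 and Csrp2 the nephritic Cre and untreated knockout arrays overlapped.

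The rest of the Th2 list did not pass. It had 1 lower gene, Il1rl1, among 12 tested, and a median of -0.52. Il4, a Th2 cytokine gene, had a contrast of 1.21 ± 0.48 (adjusted p = 0.193). Its levels were between -0.18 and 0.52 on the 6 Cre arrays, -3.29, -3.54 and -2.96 in untreated knockouts and -1.21, -2.69 and -1.20 in nephritic knockouts. All knockout arrays thus lay below all Cre arrays, and the 2 responses did not differ beyond the threshold.

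Another part of the lower genes was high in untreated knockouts and close to Cre levels in nephritic knockouts. Heat shock proteins are chaperones whose genes are induced by heat shock factor under protein stress. Of 11 tested genes of a heat shock list 2 were lower, Hsph1 and Dnaja1, none was higher, and 7 were lower at an unadjusted p under 0.05. The list median was -0.46, beside -0.09 for all genes. Hsph1, an HSP110 chaperone, stood at 2.43, 2.62 and 2.47 in untreated Cre, 2.92, 3.0 and 2.77 in nephritic Cre, 3.92, 4.01 and 4.46 in untreated knockouts and 2.95, 2.46 and 2.84 in nephritic knockouts. All untreated knockout arrays exceeded the other 9 by a wide margin. The contrast was -1.77 ± 0.29 (adjusted p = 0.031), with -1.72 from a second probe and 15 of 26 alternatives passed.

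Dnaja1 encodes an HSP40 co-chaperone. It stood at 5.67, 5.71 and 5.81 in untreated Cre, 5.95, 5.97 and 5.86 in nephritic Cre, 6.74, 6.69 and 7.12 in untreated knockouts and 6.02, 5.75 and 5.98 in nephritic knockouts. The nephritic groups overlapped, and the untreated knockouts were above all other arrays. Its contrast was -1.13 ± 0.20 (adjusted p = 0.038, 11 of 26 alternatives). Dnajb1, Hspa1a and Hsp90aa1 had contrasts of -0.97, -1.57 and -0.61 and did not pass. Bag3 had 0.07 and Hspb1 had -0.08. The mean of the list on single arrays was highest on untreated knockout 3, at 0.91 above untreated Cre, against 0.48 and 0.45 on the other 2 arrays of that group.

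Genes of HSP90 and HSP70 cofactors were noticed among the 122 and chosen after their values were seen. Fkbp4 encodes the immunophilin FKBP52, which works with HSP90 on steroid receptors. Its levels were 0.36, 0.49 and 0.54 in untreated Cre, 0.93, 1.01 and 0.82 in nephritic Cre, 1.55, 1.48 and 1.38 in untreated knockouts and 0.94, 0.71 and 0.81 in nephritic knockouts. The nephritic genotypes overlapped, and the untreated genotypes stood furthest apart. The contrast was -1.11 ± 0.14 (adjusted p = 0.013). Stip1, the adaptor between HSP70 and HSP90, had -0.82 ± 0.12 (adjusted p = 0.026) and Ahsa2, a relative of the HSP90 activator AHA1, had -1.18 ± 0.16 (adjusted p = 0.021). Stip1 passed in 14 of 26 alternatives. The contrasts of Chordc1, Cacybp, St13, Hikeshi and Hspa2 lay between -1.26 and -0.71, with 4 to 12 of 26 alternatives passed. Chordc1 and Cacybp bind HSP90, St13 binds HSP70, and Hikeshi carries HSP70 into the nucleus. For Hikeshi and for Hspa2, a testis-rich HSP70 gene, the highest group mean was instead that of nephritic Cre.

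The heat shock element, which heat shock factor binds, was searched for on both strands as GAA, any 2 bases, TTC, any 2 bases and GAA in RefSeq promoter windows of GRCm38.p6 (250 bases before to 50 after each start). It was present for 2 of the 9 genes with a window among these 10 chaperone and cofactor genes, for 2 of 105 lower genes (1.90%), for 0 of 31 higher genes and for 0.521% of 11709 tested genes. The 2 are shown because they are the chaperone genes whose window holds the full element, with the matched bases in capitals and 30 bases each, in the direction of transcription.
Hsph1: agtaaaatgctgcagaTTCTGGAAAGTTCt
Chordc1: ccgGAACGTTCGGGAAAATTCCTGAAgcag
The Hsph1 stretch (chr5:149636287-149636316, minus strand) holds 1 match, which begins 36 bases past an annotated start. The Chordc1 stretch (chr9:18292260-18292289, plus strand) holds 3 overlapping matches over 23 bases, the first of which begins 4 bases before the annotated start (-4). Hsph1 fell by 1.38 ± 0.21 and Chordc1 by 0.60 in the knockout response. Dnaja1, Fkbp4 and Stip1 do not have these letters in their windows. Other elements were searched for in the same windows. A kappa B element (GGGA, any 2 bases and TTCC) was present for 1 of 105 lower genes (0.952%), 0 of 31 higher genes and 1.74% of tested genes. A forkhead element (GTAAACA) was present for 7 of 105 lower genes (6.67%), 2 of 31 higher genes (6.45%) and 3.21% of tested genes. A glucocorticoid response element was present for 0 of the lower, 0 of the higher and 1 of the 11709 tested genes. A match describes letters and does not show binding.

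Genes with a higher contrast were led by Gnal, Arrdc3, Gm9903, Tsc22d3, Zfp36l3, Zfp36l2, 1700123K08Rik, Taar7b, Dusp1, Txnip, Shc2 and Bbc3, with contrasts of 1.33 to 1.72, among genes detected on at least 1 array of each of the 4 groups. Of these, Gnal passed in 14 of 26 alternatives, 1700123K08Rik and Taar7b in 9, Gm9903 in 7, Arrdc3 in 6 and Shc2 in 5. Gm9903, Taar7b and Shc2 were each well above background on only 1 of 3 nephritic Cre arrays, and Gm9903 also on only 1 of 3 untreated knockout arrays. Their contrasts of 1.67, 1.43 and 1.37 were 0.30, 0.27 and 0.31 with normexp and 0.70, 0.66 and 0.66 with the authors' deposited matrix. The well-expressed ones among them shared a form. Tsc22d3 encodes GILZ, a glucocorticoid-induced leucine zipper protein of lymphocytes. It stood at 5.86, 6.59 and 5.89 in untreated Cre, 6.09, 6.03 and 5.66 in nephritic Cre, 5.77, 5.53 and 5.28 in untreated knockouts and 6.96, 7.0 and 7.01 in nephritic knockouts. The 3 nephritic knockout arrays were above the other 9. It rose by 1.46 ± 0.19 in knockouts (adjusted p = 0.009) and had a response of -0.18 ± 0.19 in Cre. The contrast was 1.65 ± 0.27 (adjusted p = 0.031, 14 of 26 alternatives).

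Zfp36l2 encodes an RNA-binding protein that promotes decay of AU-rich transcripts and restrains cytokine production. It stood at 6.13, 6.84 and 6.35 in untreated Cre, 6.56, 6.44 and 6.17 in nephritic Cre, 5.74, 6.04 and 5.64 in untreated knockouts and 7.16, 7.25 and 7.29 in nephritic knockouts. Nephritic knockouts were again above all others, and untreated knockouts below all others. The contrast was 1.47 ± 0.24 (adjusted p = 0.031, 14 of 26 alternatives). Zfp36l3, a close relative with 1.48 ± 0.27 (8 of 26), may share signal with it, which was not tested. Txnip, the thioredoxin inhibitor that limits glucose uptake, had 6.24, 6.41 and 6.41 in nephritic knockouts and 4.80 to 5.73 elsewhere. Its contrast was 1.41 ± 0.26 (adjusted p = 0.038, 9 of 26 alternatives), with 1.45 from a second probe. Bbc3, the gene of the pro-apoptotic protein PUMA, had 3.98, 3.88 and 3.82 in nephritic knockouts, all above the 2.37 to 3.56 of the other arrays. Its contrast was 1.33 ± 0.26 (adjusted p = 0.043), with 6 of 26 alternatives passed. It was the 1 gene past the threshold of 16 in a survival and death list.

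Of 12 glucocorticoid-inducible genes, 3 were higher (Tsc22d3, Dusp1 and Cxcr4) and 1 was lower (Mt1), and 6 were higher and 2 lower at an unadjusted p under 0.05. The list median was 0.48. Several members answer other signals too, and the lower gene Mt1 is a metallothionein that metals also induce. Dusp1, a phosphatase of MAP kinases, stood at 0.17, 0.79 and 0.30 in nephritic knockouts and between -1.06 and -0.21 on the other 9 arrays, with a contrast of 1.43 ± 0.27 (adjusted p = 0.040, 8 of 26 alternatives). Cxcr4, the receptor of the chemokine CXCL12, stood at 0.49, 0.86 and 0.55 in untreated Cre, 0.64, 0.63 and 0.23 in nephritic Cre, 0.67, 0.98 and 0.99 in untreated knockouts and 2.10, 1.99 and 1.87 in nephritic knockouts. The nephritic knockouts were well above every other array. The contrast was 1.24 ± 0.20 (adjusted p = 0.031, 12 of 26 alternatives). Ddit4, an mTOR inhibitor gene, had 1.47 with an adjusted p of 0.054, whereas Fkbp5, also glucocorticoid-inducible, had 0.00 (adjusted p = 0.990). On single arrays the list mean was 0.36, 0.35 and 0.25 in nephritic knockouts and -0.23, -0.10 and -0.08 in untreated knockouts, relative to untreated Cre. It was 0.25, 0.03 and 0.19 in nephritic Cre.

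Cd69, an early activation and tissue retention marker, had 3.76, 3.77 and 3.87 in nephritic knockouts, above the 2.42 to 2.89 of the other arrays. The contrast was 0.94 ± 0.17 (adjusted p = 0.038, 10 of 26 alternatives). It was the 1 higher gene of 25 in an effector and memory list in which 11 others were lower at an unadjusted p under 0.05, for a median of -0.54. Gzma, a cytotoxic granule gene, had the lowest contrast of that list, -2.20, and did not pass. Gzmb, also a cytotoxic granule gene, and Lgals3, a galectin gene of that list, had -1.72 and -1.64, both with an adjusted p of 0.054.
Among higher genes chosen after their values were seen, Pik3ip1, a negative regulator of PI3 kinase in T cells, had 5.45, 5.46 and 5.42 in nephritic knockouts and 4.46 to 5.20 elsewhere. Its contrast was 0.91 ± 0.18 (adjusted p = 0.045, 7 of 26 alternatives). Stxbp4, a syntaxin-binding protein gene, stood at -1.50, -1.46 and -1.41 in nephritic knockouts, with all other arrays at -1.94 or lower. Its contrast of 1.08 ± 0.13 (adjusted p = 0.013) held without each single array. Tnnt3, a troponin gene, and Srpk2, a splicing kinase gene, had 1.25 ± 0.20 and 0.68 ± 0.12 and passed in 12 and 10 of 26 alternatives. Tnnt3 had 0.51 with normexp.

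**Figure D2:**
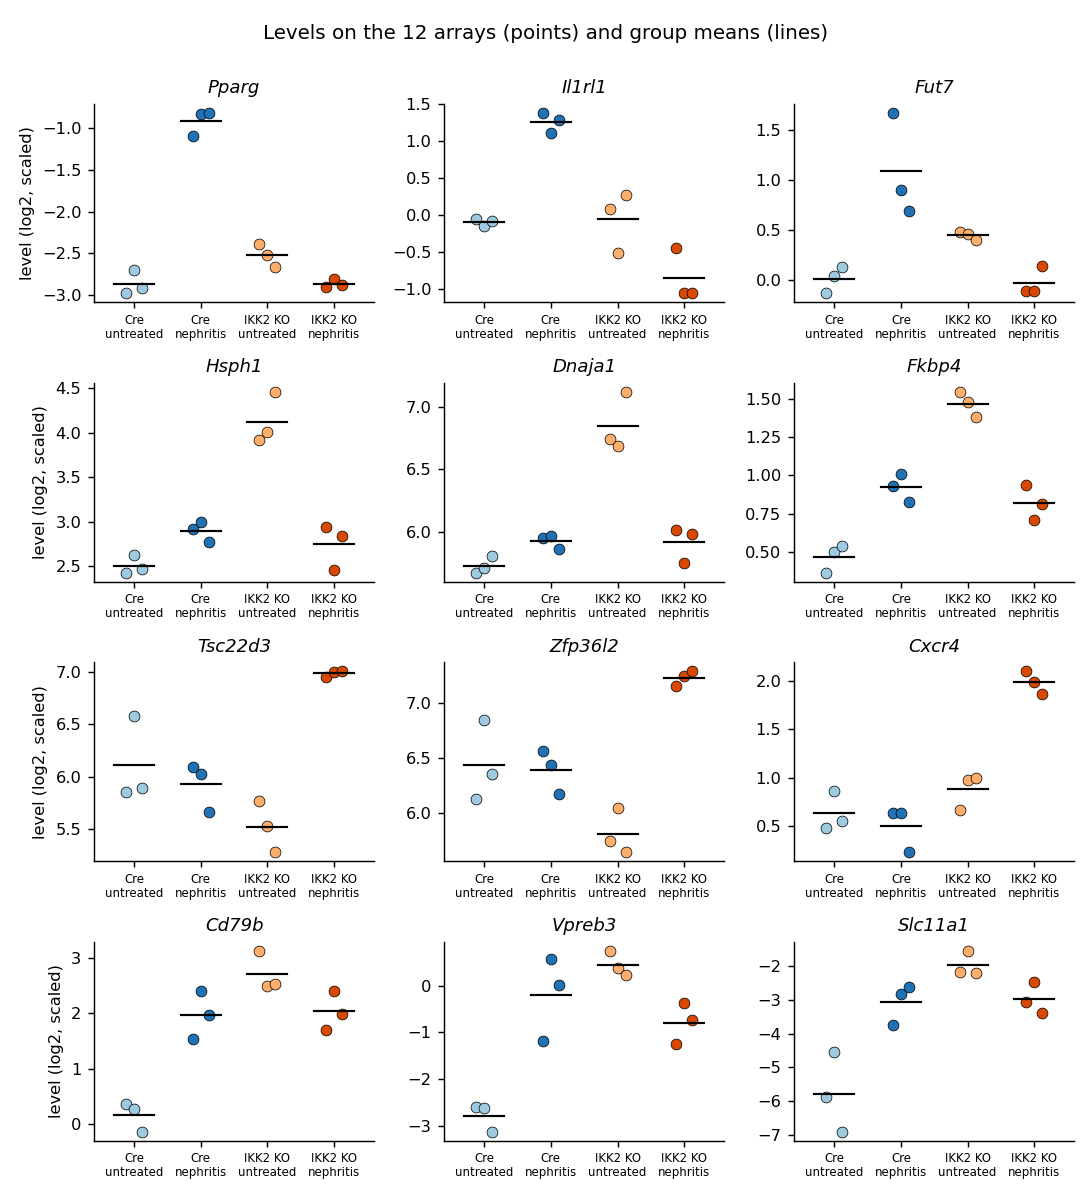
Log2 level relative to each array's 75th percentile (vertical axis, own scale per gene) of 12 genes in the 4 groups, 1 point per array and a line at the group mean. Pparg, Il1rl1 and Fut7 are highest in nephritic Cre, Hsph1, Dnaja1 and Fkbp4 in untreated knockouts, and Tsc22d3, Zfp36l2 and Cxcr4 in nephritic knockouts, while Cd79b, Vpreb3 and Slc11a1 are lowest in untreated Cre.

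Genes of cell types other than T cells were among those with the lowest contrasts. Of 19 B cell genes 3 were lower, among them Vpreb3 and Cd79b, and 10 were lower at an unadjusted p under 0.05, with a list median of -1.77. Cd79b, a chain of the B cell receptor complex, stood at 0.36, 0.27 and -0.14 in untreated Cre, 1.53, 2.41 and 1.97 in nephritic Cre, 3.13, 2.49 and 2.54 in untreated knockouts and 1.70, 2.41 and 1.99 in nephritic knockouts. Untreated Cre was below all other arrays, and the 2 nephritic groups overlapped. The contrast was -2.49 ± 0.35 (adjusted p = 0.022, 18 of 26 alternatives). Vpreb3, a B cell precursor and transitional B cell gene, had -3.81 ± 0.52 (adjusted p = 0.021). Tnfrsf13c, the BAFF receptor gene, and Btk, the kinase downstream of the B cell receptor, chosen after their values were seen, had -2.29 ± 0.44 and -1.74 ± 0.35. They passed in 6 and 5 of 26 alternatives and had -0.75 and -0.89 with the B cell list mean as a covariate.

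The B cell list mean was 0.01, 0.12 and -0.14 on the untreated Cre arrays, 0.36, 2.03 and 1.76 in nephritic Cre, 2.54, 2.31 and 2.34 in untreated knockouts and 1.97, 2.38 and 2.0 in nephritic knockouts. Nephritic Cre 1 was close to untreated Cre, unlike the other 2 arrays of its group. Without it 9 of the 19 B cell genes passed, all lower, and the list median was -2.17. In sorted bulk cells, fewer cells of a type and less RNA per cell cannot be told apart. Between 15 and 19 of the 19 genes were well above background on each array, so B cell transcripts were measured in every sample. With the B cell list mean as a covariate 17 genes passed in all, 6 of them among the 166, and the median of all genes was -0.10. Among the genes described here, Fut7 (-2.39), Mt1 (-3.36), Ifitm2 (-3.50) and Vpreb3 (-2.03) then passed. Pparg had -2.0 with an adjusted p of 0.053 and Fkbp4 -1.13 with 0.100.

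Of 16 myeloid genes 1 was lower, Lyz1, and 10 at an unadjusted p under 0.05, with a median of -1.68. No myeloid gene passed with the dim area of nephritic Cre 2 masked, and 10 passed without nephritic Cre 1. Lyz1 and Lyz2 are near-identical lysozyme genes. Their contrasts were -2.92 ± 0.62 (adjusted p = 0.0496, 3 of 26 alternatives) and -3.21 ± 0.76 (adjusted p = 0.066). Slc11a1, the phagosomal metal transporter gene of macrophages, stood at -5.89, -4.56 and -6.91 in untreated Cre, -3.74, -2.83 and -2.61 in nephritic Cre, -2.16, -1.54 and -2.21 in untreated knockouts and -3.07, -2.47 and -3.39 in nephritic knockouts. It was well above background on 1 of 3 untreated Cre arrays, and its contrast was -3.73 ± 0.71 (adjusted p = 0.039, 8 of 26 alternatives), or -1.06 with normexp.

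Others of the 12 lowest contrasts were those of Fn1, the fibronectin gene (-3.95 ± 0.76), Ear2, an eosinophil-associated ribonuclease gene (-3.91 ± 0.83), Gfra2, a receptor of the neurturin ligand (-3.74 ± 0.61), and Kit, the stem cell factor receptor of mast cells and progenitors (-2.41 ± 0.44). They passed in 8, 5, 11 and 9 of 26 alternatives. With normexp they had -1.82, -2.33, -1.28 and -1.27, and Ear2 had -1.47 with the B cell covariate. Gfra2 was well above background on only 1 of 3 untreated Cre arrays. Ear1, a near-identical copy of Ear2, had -3.76 ± 0.65 (8 of 26 alternatives), and the array may not tell the 2 apart. Ear1 did not exceed background in untreated Cre, so that its value is not a fold. Ifitm2 and Ifitm3, neighbouring interferon-induced genes of like sequence, had -2.30 ± 0.42 and -2.07 ± 0.36 and passed in 9 and 12 of 26 alternatives. In Fn1, Ear2, Gfra2 and Kit the untreated Cre arrays were the lowest group mean. Mt1 differed from these. It stood at -2.29, -2.62 and -2.40 in untreated Cre, 0.55, -0.96 and 0.40 in nephritic Cre, -1.38, -1.12 and -1.02 in untreated knockouts and -0.92, -1.05 and -1.25 in nephritic knockouts. It rose by 2.44 ± 0.30 in Cre (adjusted p = 0.006) against 0.10 ± 0.30 in knockouts, and the contrast was -2.34 ± 0.43 (adjusted p = 0.038, 10 of 26 alternatives).

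The remaining marker lists moved with single arrays. None of 6 plasma cell genes passed, although all 6 were lower at an unadjusted p under 0.05 (median -2.79). The plasma cell list mean was 3.36 on nephritic Cre 1 and at most 1.66 on the other 11 arrays. The erythroid list (0 of 10, 3 at an unadjusted p under 0.05, median -1.78) reached 4.77 on nephritic Cre 3. Of 12 neutrophil genes none passed (median 0.35, 2 higher at an unadjusted p under 0.05). Of 10 CD8 and NK cell genes 1 was lower, the NK receptor gene Klre1 (-1.94 ± 0.38, adjusted p = 0.043, 6 of 26 alternatives), and the median was -0.67. The dendritic cell and platelet lists had none past the threshold, with medians of -1.39 and 0.45 and with 1 and 0 genes at an unadjusted p under 0.05. The part of these cell types in the contrasts of other genes was not tested.

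**Figure D3:**
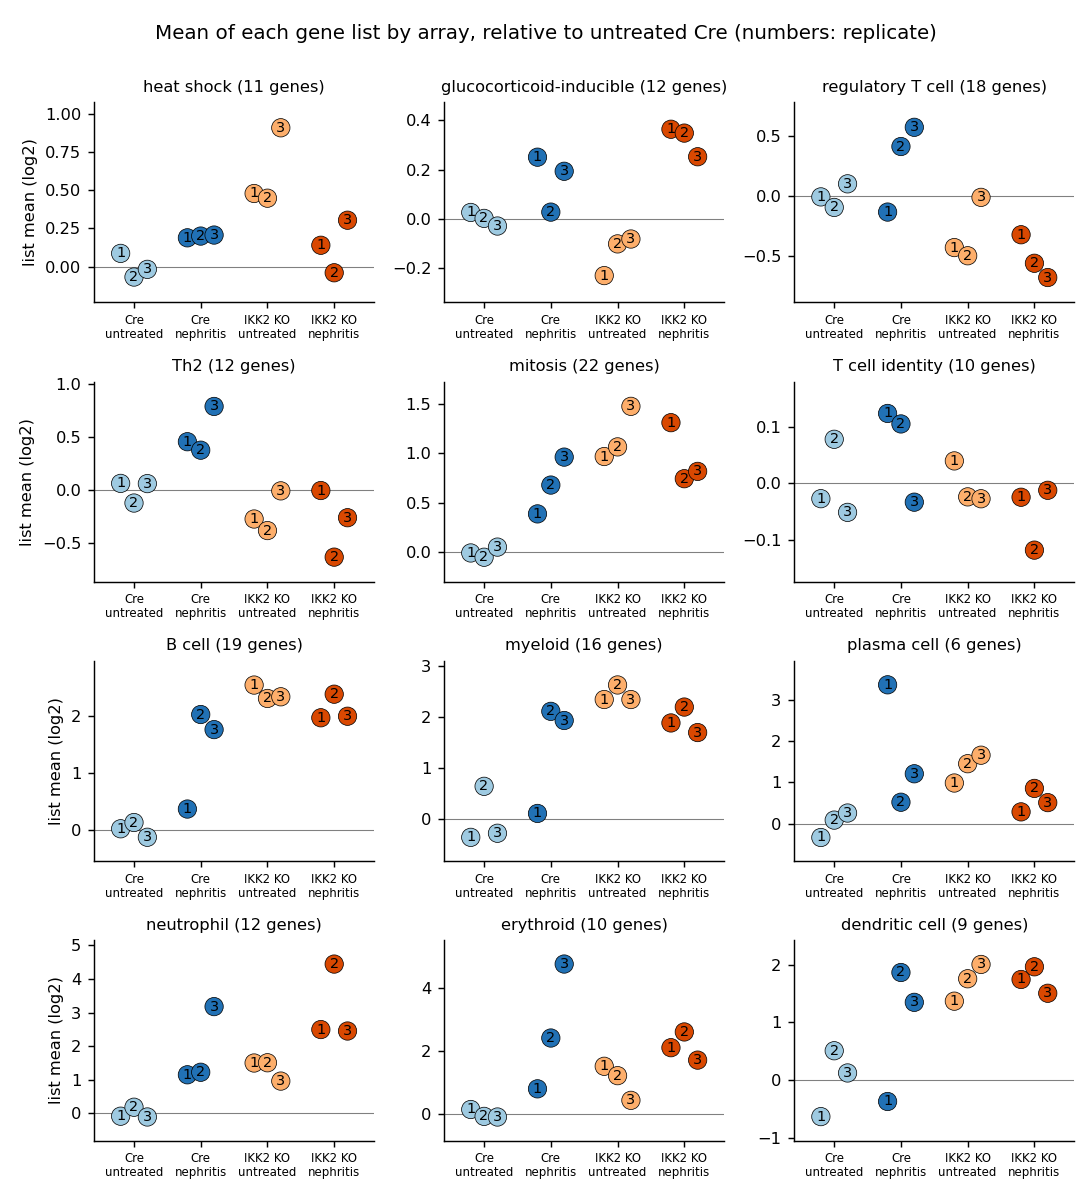
Mean log2 level of 12 gene lists on each of the 12 arrays, relative to the mean of untreated Cre (vertical axis, own scale per list), with the replicate number in each point. The heat shock list is highest in untreated knockouts. The B cell and myeloid lists are near 0 in untreated Cre and on nephritic Cre 1 and near 2 on most other arrays.

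Lists of T cell programmes had few or no genes past the threshold. Among 20 T cell receptor signalling genes none passed (1 at an unadjusted p under 0.05, median -0.08), and among 10 T cell identity genes none (1, median -0.05). Cd4 itself had -0.06 ± 0.14. None of 18 regulatory T cell genes passed (3 lower at an unadjusted p under 0.05, median -0.33). Foxp3, the regulatory T cell transcription factor gene, had -0.22 ± 0.45, and Il2ra, the interleukin 2 receptor alpha gene, had -0.32 ± 0.36. Il2ra lay between 0.21 and 1.13 on all Cre arrays and between -1.28 and 0.02 on all knockout arrays, so the genotypes did not overlap in either condition. Interleukin 2 itself had 0.03 ± 0.41 (Il2, adjusted p = 0.978). For these 3 genes the standard error exceeded the contrast.

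None of 15 Th1 genes passed (2 at an unadjusted p under 0.05, median -0.18), and Ifng, the interferon gamma gene, had 0.10 ± 0.67. None of 13 Th17 genes passed, also none at an unadjusted p under 0.05 (median -0.03), and Il17a exceeded background on 0 of the 12 arrays. Of 11 follicular helper genes 1 passed, Cxcr4 (median -0.29). None of 17 naive T cell genes (median 0.12), 14 interleukin 2 and STAT5 genes (0.11), 10 innate-like genes (-0.28) and 17 cytokine and chemokine genes (-0.24) passed, with 4, 3, 1 and 4 at an unadjusted p under 0.05. Of 16 adhesion and migration genes none passed, and 8 were lower at an unadjusted p under 0.05 (median -0.33). Itgb3, the integrin beta 3 gene, was the adhesion gene with an adjusted p of 0.091, at -0.71 ± 0.20. Of 18 immediate early genes 1 passed, Dusp1 (median -0.14).

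No gene of the mitosis or DNA replication lists passed the threshold. All 22 mitosis genes had a contrast below 0, and the median was -0.88. At an unadjusted p under 0.05, 16 of the 22 were lower, beside 2048 of all 14675 genes tested. The mitosis list mean was 0.39, 0.68 and 0.96 in nephritic Cre, 0.97, 1.06 and 1.47 in untreated knockouts and 1.31, 0.74 and 0.82 in nephritic knockouts, relative to untreated Cre. Untreated Cre was the lowest group, all nephritic Cre arrays lay below all untreated knockout arrays, and the nephritic knockouts overlapped both. Ccna2, the cyclin A2 gene, had -1.25 ± 0.38 (adjusted p = 0.114). Outside that list the chromosome condensation gene Smc2, the phosphatase gene Cdkn3 and the nuclear import gene Kpna2, chosen after their values were seen, had -0.74 ± 0.13, -1.0 ± 0.21 and -0.68 ± 0.14 and passed with adjusted p of 0.038 to 0.049, in 3 to 7 of 26 alternatives. DNA replication genes had a median of -0.21, with none of 23 passed and 7 at an unadjusted p under 0.05.

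Of 18 cholesterol synthesis genes 2 were lower, Cyp51 and Idi1, and 7 at an unadjusted p under 0.05 (median -0.30). Cyp51, a sterol demethylase, had 0.30, 0.59 and 0.34 in untreated knockouts and -0.29 to 0.08 on the other arrays, with a contrast of -0.72 ± 0.14 (adjusted p = 0.039, 6 of 26 alternatives). Idi1, the isomerase of isopentenyl diphosphate, had -0.56 ± 0.12 (adjusted p = 0.0495, 2 of 26 alternatives). Plin2, a lipid droplet coat protein gene chosen after its values were seen, stood at 0.30, 0.21 and 0.07 in untreated Cre, 0.39, 0.42 and 0.57 in nephritic Cre, 0.92, 0.94 and 1.18 in untreated knockouts and 0.28, 0.03 and 0.04 in nephritic knockouts. Untreated knockouts were above all others, and the contrast was -1.17 ± 0.14 (adjusted p = 0.013). None of 17 glycolysis genes (4 at an unadjusted p under 0.05, median -0.19), 22 respiratory chain genes (4, -0.17), 24 ribosomal protein genes (3, 0.14) or 23 interferon-stimulated genes (0, -0.18) passed. The interferon-stimulated list had median responses of 0.49 in Cre and 0.33 in knockouts.

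**Figure D4:**
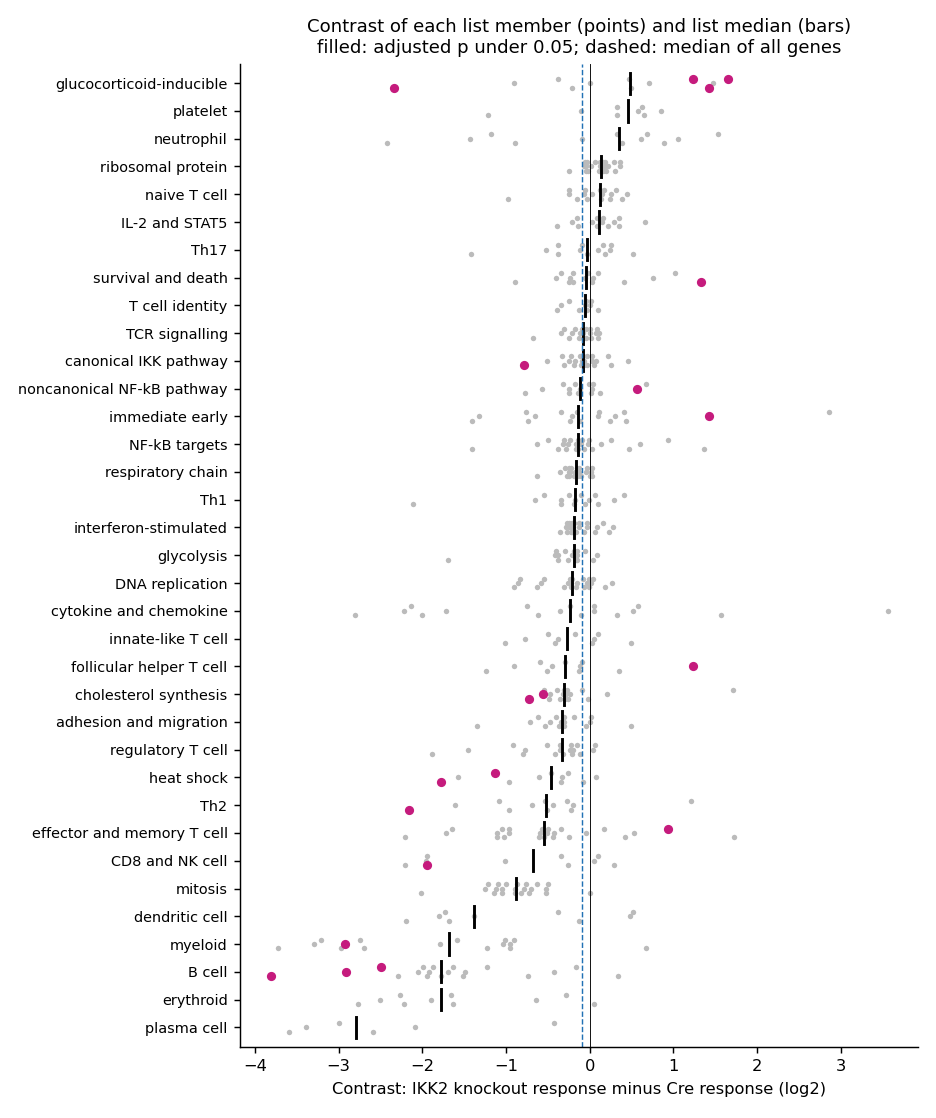
Contrast of each tested member of the 35 gene lists (horizontal axis, log2; 1 point per gene), with a bar at each list median and a dashed line at the median of all genes, -0.09. Genes past the threshold are filled. Medians run from 0.48 for the glucocorticoid-inducible list to -2.79 for the plasma cell list.

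With slide as a block, 11 of the 62 selected genes that had passed still did. They were Pparg, Il1rl1, Hsph1, Dnaja1, Fkbp4, Stip1, Ahsa2, Plin2, Nxpe4, Stxbp4 and Tsc22d3. Among the untreated knockouts, the contrasts in that fit rest on untreated knockout 3 alone. They included -2.15 for Pparg, -2.48 for Il1rl1, -2.10 for Hsph1 and 1.89 for Tsc22d3. Nxpe4, of a neurexophilin family, did not exceed background on the untreated Cre arrays, so its value of -2.55 (-0.62 with normexp) is not a fold.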

How the data were processed

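The data are 1-colour Agilent arrays of splenic CD4+ T cells, 12 of the 16 of the series. The authors deposited linear spot intensity, from which Agilent Feature Extraction had subtracted background and removed spatial trends, per the file headers. Its version is 10.5 per the submitters' processing notes and 10.7 per the file headers. A log2 matrix of these arrays, also deposited by the authors and made by a method not given in the sources used here, served as an alternative. How background was treated in it is unknown.

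Control spots and outlier spots (103 to 246 per array) were left out, spots of a probe were averaged, and log2 processed intensity was scaled by each array's 75th percentile. The array files hold no gene names. Probes were named through accessions in a RefSeq table of GRCm38.p6 (27235 of 55681 probes had 1 symbol), whereas the files use mm9, and no coordinates of probes are given. Genes were represented by their brightest probe over all 16 arrays, among those well above background on at least 2 of the 16 (14675 genes). The fit of the 12 arrays alone kept these genes and probes. Among the 166 genes past the threshold, the other probes of a gene had the same sign in 7 of 7 higher and 28 of 37 lower genes that had any. All 16 arrays entered a limma 3.58.1 model (lmFit, eBayes; R 4.3.3) with 6 group means, with two-sided p-values adjusted by Benjamini-Hochberg, threshold 0.05. All adjusted p in the text are from limma. The model was tested on simulated data with independent normal noise around group means. That noise held no slide effect, dim area or outlying array, so the test does not show how these act on the calls. Python 3.11.15, numpy 2.4.6, pandas 2.3.3 and matplotlib 3.10.9 made tables and plots. The number of arrays limits the precision.

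The comparison, members and lists were chosen with earlier results of these data known. Described are the 12 largest contrasts in each direction (past the threshold, detected in each group, other probes of the same sign), list members past the threshold, 18 genes followed whatever their values, the largest contrasts of lists with fewer than 2 genes past the threshold, and genes marked as chosen after their values were seen. Dnajb1, Hspa1a, Hsp90aa1, Bag3, Hspb1, Ddit4, Fkbp5, Gzmb and Lgals3 are list members named outside these rules. They are to be read as chosen after their values were seen. Alternatives were normexp background correction (run on the median signal, since the files hold no mean signal), 2 other scalings, the deposited matrix, 2 filters, 12 arrays alone, slide and replicate blocks, a B cell covariate and each array left out. After the data were seen, 4 more were added: leaving out untreated Cre 1 (highest spot variation) and nephritic Cre 2 (apart on the second principal component) together, counting only genes detected in each group, and masking the dim area of nephritic Cre 2 with 16 or 12 arrays.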

Additional observations from a re-analysis of the deposited data

Results flagged for a closer look

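The nephritis response differed between IKK2 knockouts and Cre controls for 166 genes, 44 higher and 122 lower, by the test of the difference itself in limma. A further signal came from probes that have no symbol here and enter no comparison above. Of 15685 such probes that passed the detection filter, 23 (0.147%) passed the same contrast, 14 higher and 9 lower, with adjustment over these probes. This share was below the 1.13% of the genes tested. Groups of 3 arrays are too small for a test of single outlying samples.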

How the results depend on the processing

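All 166 genes kept their sign in every alternative (161 of 161 tested with the stricter filter), although the alternatives share arrays and the genes were selected for their contrast. The total stayed within 1.5 times of 166 for quantile normalization (163), the percentile over detected probes (121, with 69 lower), the stricter filter (247, with 70 higher) and the masked dim area (156). Counts of genes past the threshold, higher and lower, were otherwise 17, 5 and 12 with normexp, 31, 9 and 22 with the authors' deposited matrix, 10, 2 and 8 without the filter, and 11, 2 and 9 with the 12 arrays alone. They were 38, 8 and 30 with slide as a block, 39, 10 and 29 with slide as a random block, and 17, 6 and 11 with the B cell covariate. Leaving out each array in turn gave 9 to 388 genes, 2 to 125 higher and 6 to 330 lower. Without untreated Cre 1 and nephritic Cre 2 together, which left 2 arrays in each of these groups, limma called 2, 0 higher and 2 lower, with 2343 genes at an unadjusted p under 0.05, and masking with 12 arrays gave 10, 2 and 8. Fewer arrays also leave fewer degrees of freedom; the other causes were not tested. Deviations from means of 3 arrays cannot decide whether replicate numbers pair the samples. The deviations of same-numbered arrays of different groups correlated at -0.196 to 0.126, over 0.1 in 3 of 18 pairs. Those of other-numbered arrays correlated at -0.160 to 0.272, over 0.1 in 5 of 36 pairs. The replicate block gave 8 genes, 1 higher and 7 lower. Of the 62 selected genes past the threshold none reversed under any of 26 alternatives. Signal near background limits 4 higher and 16 lower genes that were not detected on any array of a group.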
